A study of Mus musculus with 20 samples.

Results

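The genes of the proteasome were measured in knee articular cartilage of male mice with 4 combinations of genotype and exercise. The Dio2-/- mice lack type 2 deiodinase, the enzyme that turns thyroxine into active thyroid hormone, and had been backcrossed to C57Bl/6 for 6 generations. The Run mice were forced to run on a treadmill for 3 weeks, 1 h a day on 5 days a week, at 11 m/min and an incline of 5 degrees, and the NoRun mice were not. Mice were 4 to 6 months old, and each array held cartilage RNA of left knees pooled from 2 mice of 1 group, with 6 Dio2-/- Run, 3 Dio2-/- NoRun, 8 wild-type Run and 3 wild-type NoRun pools. Pools are named here by the number in their label. The study gives the wild-type mice as bought from a supplier and all mice as littermates, so that the relation between the genotypes is not settled. Members were all genes whose platform symbol begins with Psma, Psmb, Psmc, Psmd or Psme and a number, with a detection P below 0.05 on at least 3 of the 20 arrays. The pattern matched 80 of the 45281 probes and 45 genes. Of these, 63 probes of 39 genes were above background often enough to be tested, among 23148 tested probes and 12310 tested genes in all. Psmc3ip and Psme3ip1 match the pattern by name only, so that 37 genes of the proteasome and its activators were described, each by its brightest tested probe. The other 6 genes, Psma1, Psma3, Psma6, Psmb11, Psmc6 and Psmd3, were above background on 0 arrays and have no value here. This holds for their probes on this platform and does not show that the genes were not expressed. Of the 37 genes, 34 were above background on all 20 arrays, Psma8 and Psmd2 on 12 and Psmd6 on 14. Nearest the limit, the second probes of Psmc2 and Psmd12 were kept with 5 arrays, and that of Psmd2 was left out with 2.

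The proteasome is the protease that degrades most ubiquitin-tagged proteins of the cell. Its core is a barrel of stacked rings, with an outer alpha ring (Psma genes) that gates the entry and an inner beta ring (Psmb genes) that holds the cutting sites. A cap on the end of the barrel binds ubiquitin, removes it and unfolds the substrate with a ring of ATPases (Psmc genes), held by further base and lid subunits (Psmd genes). In immune cells and under interferon, Psmb8, Psmb9 and Psmb10 replace the catalytic subunits Psmb5, Psmb6 and Psmb7, which gives the immunoproteasome that cuts peptides for MHC class I molecules, and the PA28 activator of Psme1 and Psme2 can take the place of the cap. In cartilage the proteasome takes part in the turnover of signalling and matrix-related proteins of chondrocytes.

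The sequence before the start of 4 of the members named below is shown from RefSeq (GRCm38.p6), 250 bases each, 5' to 3' on the strand of the gene. They are Psmc4 (chr7:28050093-28050342, minus strand), Psmd9 (chr5:123227940-123228189, plus strand), Psmb8 (chr17:34197945-34198194, plus strand) and Psmb9 (chr17:34187331-34187580, minus strand). Capitals mark matches, on either strand, to 4 motifs: the core GAAANNGAA of interferon regulatory factors, the core TTCNNNGAA of STAT proteins, the core TGACNNNGC of the antioxidant response element that Nfe2l1 and Nfe2l2 bind, and the CCAAT box.
Psmc4: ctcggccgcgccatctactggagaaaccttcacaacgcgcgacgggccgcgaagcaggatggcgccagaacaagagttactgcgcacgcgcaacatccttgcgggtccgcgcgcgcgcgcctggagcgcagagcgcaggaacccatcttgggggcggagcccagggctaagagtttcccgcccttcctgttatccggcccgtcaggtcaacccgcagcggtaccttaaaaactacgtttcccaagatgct
Psmd9: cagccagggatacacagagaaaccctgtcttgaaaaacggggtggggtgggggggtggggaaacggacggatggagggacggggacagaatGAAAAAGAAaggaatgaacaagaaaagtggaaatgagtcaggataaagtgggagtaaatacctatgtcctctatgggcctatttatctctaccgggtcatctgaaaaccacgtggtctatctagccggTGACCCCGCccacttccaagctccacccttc
Psmb8: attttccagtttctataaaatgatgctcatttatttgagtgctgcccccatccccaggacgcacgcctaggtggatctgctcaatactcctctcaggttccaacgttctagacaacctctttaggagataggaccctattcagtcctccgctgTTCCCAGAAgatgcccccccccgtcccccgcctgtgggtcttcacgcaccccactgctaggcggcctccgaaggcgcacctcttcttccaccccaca
Psmb9: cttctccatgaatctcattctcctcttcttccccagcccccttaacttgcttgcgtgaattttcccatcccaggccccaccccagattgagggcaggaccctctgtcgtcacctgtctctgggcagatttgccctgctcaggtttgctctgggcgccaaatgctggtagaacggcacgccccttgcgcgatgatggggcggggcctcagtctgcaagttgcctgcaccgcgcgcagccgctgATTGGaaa

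The Psmb8 sequence holds a STAT core at position -97 from the start, the Psmb9 sequence a CCAAT box on the opposite strand, the Psmd9 sequence an interferon regulatory factor core and an antioxidant response core, and the Psmc4 sequence none of the 4. Promoter sequences were found for 31 of the 37 genes. Of their 33 sequences, 3 (9.09%) held the interferon regulatory factor core, 1 (3.03%) the STAT core, 4 (12.1%) the antioxidant response core and 10 (30.3%) the CCAAT box. Over all 32851 promoters of the same length the shares were 7.13%, 7.02%, 10.2% and 33.8%, in the same order. A match is a run of letters only, and binding was not measured.

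Levels are normalized log2 intensities, and a difference of 1 is a factor of 2 in signal. The arrays had 18469 to 21386 probes with a detection P below 0.05, and the median raw intensity was 162.3 to 223. The 20 arrays lay on 6 chips, and the 3 wild-type NoRun pools shared chip 4 with Dio2-/- Run pool 35, while the 3 Dio2-/- NoRun pools were alone on chip 5. Chip and group therefore cannot be told apart in comparisons with the Dio2-/- NoRun pools, and those with the wild-type NoRun pools are linked to the other chips through pool 35 alone. Of the 2 Dio2 probes, 1 was at background on all arrays, and the other was above it on 7 Dio2-/- arrays (values of 4.95 to 6.67 over all 9 arrays) and on 2 wild-type arrays (4.95 to 5.73 over all 11), but where these probes lie relative to the deleted part is not given, so they do not check the labels. Of 14 listed cartilage markers, Acan, Col2a1, Comp, Sox9 and Chad were above background on all 20 arrays, while Matn3 and Cnmd were above it on 0. All 13 skeletal muscle markers with a probe and 13 of 14 neutrophil markers were above it on all 20. Dio2-/- NoRun pool 16 and Dio2-/- Run pool 24 stood apart: their neutrophil marker means were 12.997 and 14.08, against 14.87 to 15.15 in the other 18, and their muscle marker means were 14.86 and 14.87, against 13.47 to 14.61. In RNA from whole tissue, fewer cells of a type and less RNA per cell cannot be told apart.

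Between the genotypes, over all 20 arrays and with running in the model, the proteasome genes as a group lay close to 0. The median log2 difference (Dio2-/- minus wild-type) of the 37 genes was 0.006, with 19 genes above 0 and 18 below, and the median of all tested genes was 0.009. At an unadjusted threshold of 0.05, 3 genes were higher (8.11%, against 8.76% of all genes) and 2 lower (5.41%, against 6.95%). No subunit passed the threshold after adjustment over all 23148 probes in limma, where 1 probe of any gene did (0.00432%), and the smallest adjusted P of a subunit was 0.2075. All 5 tested alpha ring genes (Psma2, Psma4, Psma5, Psma7 and Psma8) were below 0, with a median of -0.12, and all 5 tested cap ATPases (Psmc1 to Psmc5) were above 0, with a median of 0.08. Of the 7 lid genes 6 were above 0, and all 3 immunoproteasome genes were below 0. These directions are those of the brightest probes. Another probe gave 0.21 for Psma5 (detected on 7 arrays), -0.06 for Psmc2 (5 arrays) and 0.02 for Psmb10. Probes of opposite sign were found for 11 of the 18 genes with at least 2 tested probes.

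**Figure D1:**
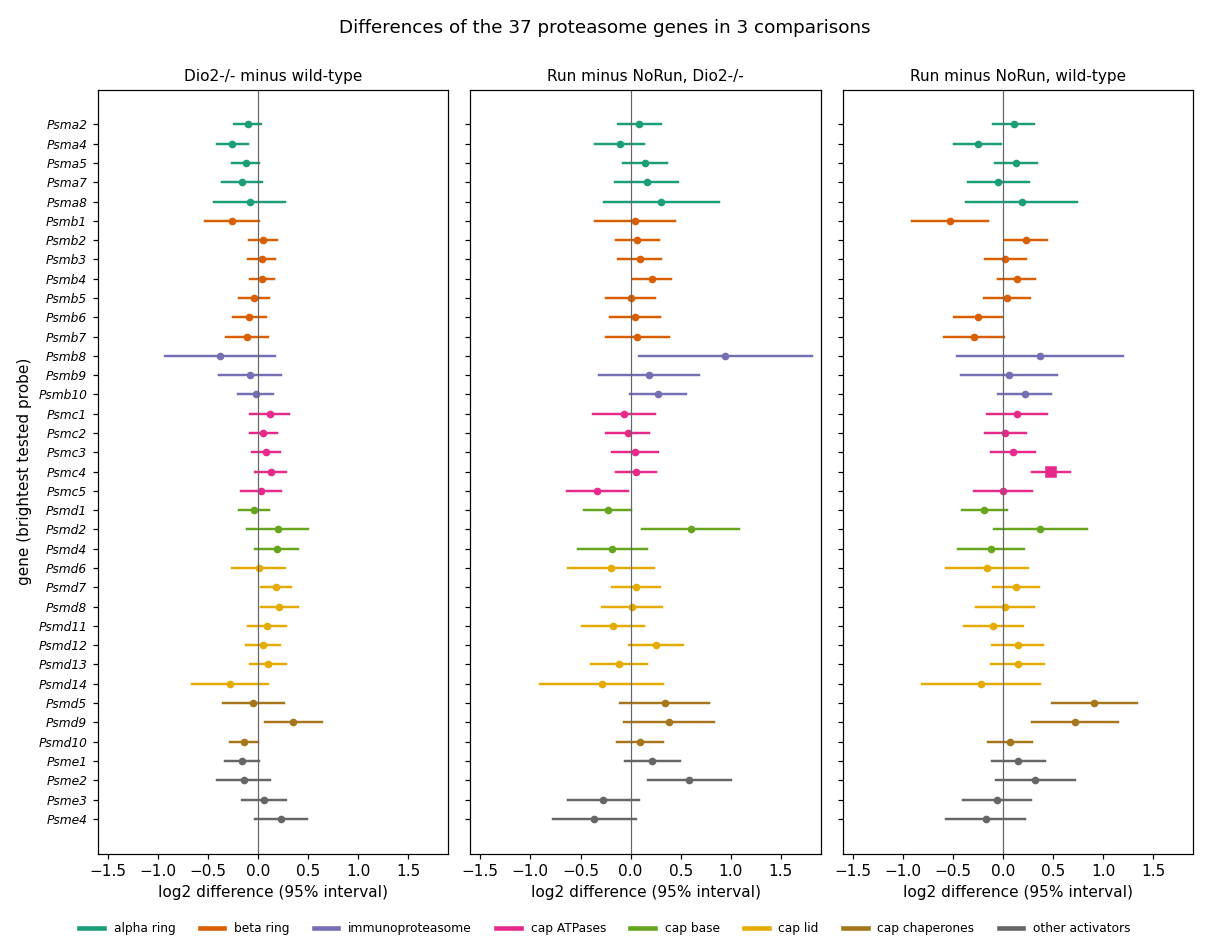
Log2 differences of the 37 genes (points) with their 95% intervals (lines) for Dio2-/- minus wild-type, Run minus NoRun in Dio2-/- mice and Run minus NoRun in wild-type mice, coloured by role. A large square marks an adjusted P below 0.05, which Psmc4 alone has, in the wild-type running comparison. Most intervals hold 0.

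Psma4, an alpha ring subunit, had the smallest P of the genotype comparison. Its levels in the 9 Dio2-/- pools ran from 12.86 to 13.28, and in the 11 wild-type pools from 13.06 to 13.77. The log2 difference was -0.26 ± 0.07 (SE, adjusted P = 0.2075), and the groups overlapped between 13.06 and 13.28. It was -0.15 within chip 6, the chip that holds Run pools of both genotypes, where 2 Dio2-/- pools stood against 1 wild-type pool.

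Psmd7 and Psmd8, subunits of the lid, and Psmd9, a chaperone of cap assembly, were above 0, and Psmd10 (gankyrin), another such chaperone, was below 0. The log2 differences were 0.18 ± 0.07 for Psmd7 (adjusted P = 0.2847), 0.21 ± 0.09 for Psmd8 (adjusted P = 0.306), 0.35 ± 0.14 for Psmd9 (adjusted P = 0.2785) and -0.14 ± 0.07 for Psmd10 (adjusted P = 0.3457). In a fit with a term for each chip, which rests on chip 6, the values were 0.40 for Psmd7, 0.57 for Psmd8, -0.06 for Psmd9 and -0.31 for Psmd10, so that Psmd9 changed sign. Other probes of the same genes did not all share the direction. The other 2 probes of Psmd7 gave -0.11 and -0.05, and the other probe of Psmd9, detected on 15 arrays, gave -0.11. Psmd8 was highest in the pools that stood apart by their markers, at 12.82 in Dio2-/- Run pool 24 and 12.75 in Dio2-/- NoRun pool 16, and its difference was 0.12 without them and 0.05 with marker means in the model.

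Within the NoRun pools (3 against 3), 2 subunits were higher in Dio2-/- and 2 lower at the unadjusted threshold, 5.41% each, against 5.07% and 5.74% of all genes. None passed after adjustment, where 10 probes of any gene did (0.0432%). The levels of the groups did not overlap for 5 subunits higher in Dio2-/- (Psmc4, Psmc5, Psmd5, Psmd7 and Psmd9; 13.5%, against 6.82% of all genes) and for 4 lower (Psma4, Psma5, Psmb1 and Psmb6; 10.8%, against 6.58%). These are the brightest probes. Another probe had the opposite sign for Psmd7 (-0.18), Psma5 (0.39, detected on 7 arrays) and Psmb6 (0.04). Probes disagreed in sign for 7 of the 18 genes with at least 2 tested probes. Psmb1, a beta ring subunit without a cutting site, was at 10.85, 11.02 and 11.01 in the Dio2-/- NoRun pools and at 11.69, 11.49 and 11.70 in the wild-type NoRun pools. Its log2 difference was -0.66 ± 0.22 (adjusted P = 0.3409). Psmc4 had 0.42 ± 0.11 (adjusted P = 0.2148), Psmd9 0.58 ± 0.25, Psma4 -0.36 ± 0.14 and Psmb6 -0.29 ± 0.14, with adjusted P of up to 0.4818. All 5 alpha ring genes were below 0 here and all 5 cap ATPases above it, with medians of -0.17 and 0.26. These groups were on different chips.

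Within the Run pools (6 against 8), 0 subunits were higher in Dio2-/- and 1, Psma4, was lower at the unadjusted threshold (0% and 2.7%, against 4.97% and 3.11% of all genes). No probe of any gene passed after adjustment (0%). The median of the 37 genes was -0.005. By their brightest probes 3 of the 5 cap ATPases were above 0 and 2 below, with a median of 0.04. All 5 alpha ring genes were below 0, with a median of -0.11. For the cap ATPase Psmc4 the Run difference was -0.0045 ± 0.07. Psma4 had -0.21 ± 0.09 (adjusted P = 0.5754), Psmd8 0.21 ± 0.11, Psmd7 0.16 ± 0.09, Psmd10 -0.14 ± 0.08 and Psmd9 0.25 ± 0.16, with adjusted P of up to 0.6958. These are the brightest probes. The other probe gave 0.14 for Psma5 (detected on 7 arrays) and -0.32 for Psmd9 (15 arrays), and 1 of 3 probes of Psmd7 gave -0.17. Probes disagreed in sign for 9 of the 18 genes with at least 2 tested probes.

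The 1 proteasome difference that passed the adjusted threshold was in the comparison of wild-type Run with wild-type NoRun pools. Psmc4, 1 of the ATPases that unfold substrates, was at 12.48, 12.51, 12.58, 12.60, 12.61, 12.62, 12.73 and 12.80 in the wild-type Run pools. In the wild-type NoRun pools it was at 12.07, 12.12 and 12.21. The groups did not overlap, and the Psmc4 signal was 1.40-fold higher in the Run pools, a log2 difference of 0.48 ± 0.09 (adjusted P = 0.03655). The 3 wild-type NoRun pools were the lowest of all 20: the 6 Dio2-/- Run pools were at 12.55 to 12.70 and the 3 Dio2-/- NoRun pools at 12.52 to 12.60. Dio2-/- Run pool 35, on the same chip as the wild-type NoRun pools, was at 12.69. The call was lost in fits with chip as a fixed (0.73, adjusted P = 0.1742) or random (0.50, adjusted P = 0.0987) effect, and it held in 8 of the 20 fits that left out 1 pool. It was lost without any 1 of Dio2-/- Run pools 25, 33 and 34, wild-type Run pools 20, 21, 23, 27, 29 and 30 and wild-type NoRun pools 12, 14 and 15, with adjusted P of up to 0.1796. With 1 of the wild-type NoRun pools left out, the log2 difference was 0.45 to 0.52. Markers of cartilage and muscle lay lower in the same comparison: 9 of 10 tested cartilage markers were below 0, with a median of -0.47 and list means of 9.03 to 9.82 in wild-type Run and 9.97 to 9.99 in wild-type NoRun pools, and 13 of 13 muscle markers were below 0, with a median of -0.23. The T and NK cell markers lay higher, with 5 of 5 above 0, a median of 0.48 and list means of 9.31 to 9.78 in wild-type Run and 8.93 to 9.13 in wild-type NoRun pools. None of these markers passed the adjusted threshold. With neutrophil and muscle means in the model, the Psmc4 difference was 0.51 (adjusted P = 0.008915), and the part of the cartilage and T and NK cell markers was not tested.

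**Figure D2:**
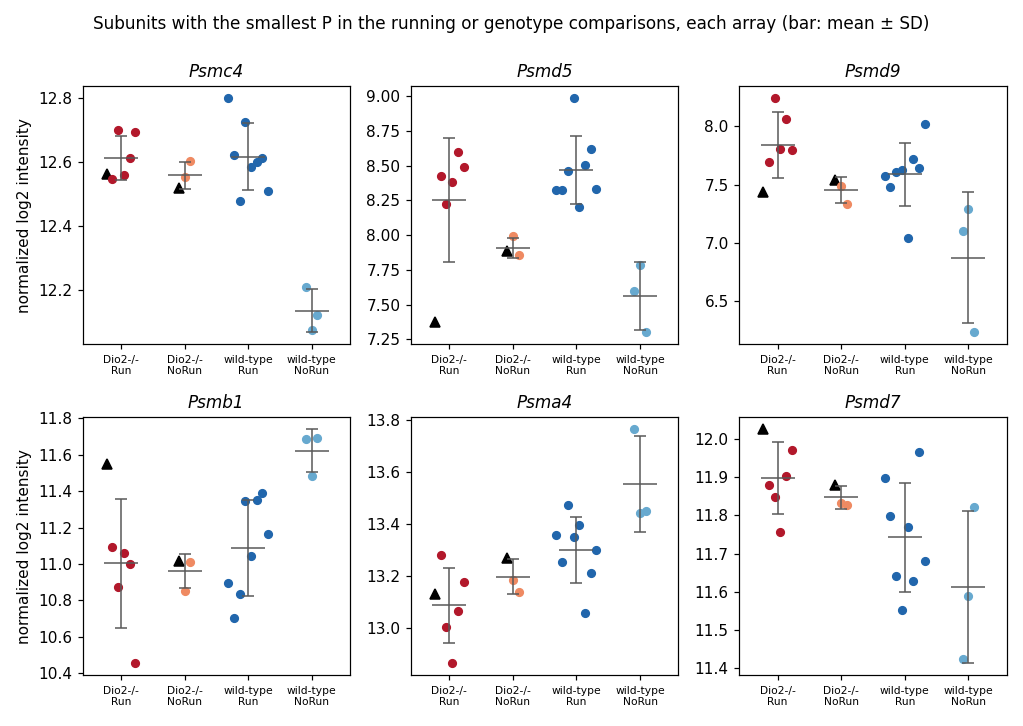
Normalized log2 intensity of 6 genes in each array, by group, with the mean and SD of each group as a bar; black triangles are Dio2-/- Run pool 24 and Dio2-/- NoRun pool 16. Psmc4 lies at 12.07 to 12.21 in the wild-type NoRun pools and at 12.48 or above in all others, and Psmd5 is below 8 in all NoRun pools and in Dio2-/- Run pool 24.

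Psmd5 and Psmd9, both chaperones that help to assemble the base of the cap, had the next smallest P. Psmd5 was at 8.20 to 8.99 in the 8 wild-type Run pools, with a median of 8.40, and at 7.60, 7.78 and 7.30 in the wild-type NoRun pools. These groups did not overlap, and the log2 difference was 0.91 ± 0.20 (adjusted P = 0.06631). The wild-type difference passed when Dio2-/- Run pool 24, where Psmd5 was at 7.37, was left out (adjusted P = 0.01138), and when Dio2-/- NoRun pool 16 was (adjusted P = 0.04021). In the fit with a term for each chip the difference was 2.02 ± 0.43 (adjusted P = 0.1101). Psmd9 was at 7.04 to 8.02 in the Run pools, with a median of 7.61, and at 7.10, 7.29 and 6.23 in the NoRun pools, which overlapped. Its log2 difference was 0.72 ± 0.21 (adjusted P = 0.1383), and 0.39 without wild-type NoRun pool 15, the lowest.

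Over all 37 genes the median of the wild-type running comparison (Run minus NoRun) was 0.07, with 24 genes above 0, and that of all tested genes was 0.009. At the unadjusted threshold 4 subunits were higher (10.8%, against 6.52% of all genes) and 3 lower (8.11%, against 6.47%). After adjustment 1 subunit and 45 probes of any gene (0.194%) passed. Levels did not overlap for 3 subunits higher in Run (Psmb2, Psmc4 and Psmd5; 8.11%, against 4.56%) and 2 lower (Psmb1 and Psmd1; 5.41%, against 3.89%). Psmb1 was at 10.70 to 11.39 in the Run pools, against 11.49 to 11.70 in the NoRun pools, a log2 difference of -0.53 ± 0.18 (adjusted P = 0.2079). Psmb2, a beta ring subunit without a cutting site, had 0.23 ± 0.10 (adjusted P = 0.3236).

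The probes of the cutting subunits did not run one way. Psmb6 had -0.25 by its brightest probe and 0.02 by the other. For Psmb7 the brightest of 4 probes gave -0.29 ± 0.14 and the other 3 gave 0.14, 0.23 and 0.32. Psmb5 had 0.04 ± 0.11. Of 18 genes with at least 2 tested probes, 6 had probes of opposite sign in this comparison, 4 of them with an unadjusted P below 0.05 on at least 1 probe, among them Psmd7 (-0.63 to 0.13) and Psmd10 (-0.0062 to 0.34).

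In Dio2-/- mice, running went with a median of 0.05 over the 37 genes, with 24 genes above 0, against 0.02 for all tested genes. By their brightest probes, 4 subunits were higher at the unadjusted threshold (10.8%, against 8.4% of all genes) and 1 lower (2.7%, against 8.02%). None passed after adjustment, where 31 probes of any gene did (0.134%), and the smallest adjusted P was 0.1327. Levels did not overlap for 2 subunits higher in Run (Psmb4 and Psmd12; 5.41%, against 2.1%) and for 0 lower (0%, against 1.88%). Psmb4, a beta ring subunit, was at 14.65 to 14.85 in the Dio2-/- Run pools and at 14.44, 14.64 and 14.54 in the Dio2-/- NoRun pools. Its log2 difference was 0.21 ± 0.09 (adjusted P = 0.2217).

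Psme2, the beta subunit of PA28, had the smallest P here. It was at 9.23, 9.996, 10.09, 10.09, 10.17 and 10.10 in the Dio2-/- Run pools, and at 8.90, 9.53 and 9.66 in the Dio2-/- NoRun pools. The groups overlapped through pool 24 alone, and the log2 difference was 0.59 ± 0.20 (adjusted P = 0.1327). The mouse genome also carries the closely related Psme2b, and signal from it cannot be told apart here. Psmb8 of the immunoproteasome had 0.95 ± 0.41 (adjusted P = 0.2244). Psmd2, a large base subunit, had 0.60 ± 0.23 (adjusted P = 0.1779), but its probe was above background on 1 of 3 Dio2-/- NoRun arrays and close to background throughout. Psmc5, a cap ATPase, had -0.33 ± 0.14 by its brightest probe (adjusted P = 0.2224) and 0.16 by the other. Of 18 genes with at least 2 tested probes, 5 had probes of opposite sign in this comparison. For 3 of them at least 1 probe had an unadjusted P below 0.05: Psmc5, Psmd7 (-0.45 to 0.05) and Psmd10 (-0.056 to 0.41).

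Leaving out Dio2-/- Run pool 24 alone made 3 calls in the Dio2-/- running comparison: Psme2 (0.73, adjusted P = 0.01083), Psmb8 (1.25, adjusted P = 0.0239) and Psmd5 (0.52, adjusted P = 0.0403). These 3 genes each had pool 24 as the lowest of the Dio2-/- Run pools. Markers of blood cells were above 0 in this comparison too, with 0 past the adjusted threshold: 13 of 13 neutrophil markers (median 0.40), 5 of 5 T and NK cell markers (0.84), 7 of 8 monocyte and macrophage markers (0.42) and 5 of 6 B cell markers (0.45). At the unadjusted threshold 4 T and NK cell markers (80%) and 1 monocyte and macrophage marker (12.5%) were higher, against 8.4% of all genes. For the neutrophil and B cell markers the count was 0. With the neutrophil and muscle means in the model Psme2 was at 0.37 and Psmb8 at 0.36, and the part of the other lists was not tested. Leaving out Dio2-/- NoRun pool 16 instead moved Psme2 to 0.36 (adjusted P = 0.5762) and Psmb8 to 0.24, and 0 subunits were then higher at the unadjusted threshold.

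The difference between the 2 running effects (that in Dio2-/- minus that in wild-type) was tested as an interaction. At the unadjusted threshold 1 subunit was above 0 and 1 below (2.7% each, against 2.5% and 2.24% of all genes), and no probe of any gene passed after adjustment (0%). Psmc4 had -0.43 ± 0.13 (adjusted P = 0.9292): its log2 difference with running was 0.05 ± 0.10 in Dio2-/- mice and 0.48 in wild-type mice. Psmb1 had 0.58 ± 0.26, Psmd5 -0.57 ± 0.30, Psmb6 0.29 ± 0.17 and Psmb7 0.36 ± 0.21, each with an adjusted P of 0.9564. A different response of the genotypes was thus not shown for any subunit.

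The immunoproteasome genes were above background on all 20 arrays. Psmb8, the chymotrypsin-like subunit that replaces Psmb5, was at 10.68 in Dio2-/- Run pool 24 and 9.85 in Dio2-/- NoRun pool 16, and at 11.46 to 12.69 in the other 18 pools. Psmb9, which replaces Psmb6, was at 10.48 and 9.90 in these pools, against 10.46 to 11.32 in the other 18. Psmb10, which replaces Psmb7, was at 12.07 and 11.54, against 11.96 to 12.40. All 3 were lowest of all arrays in pool 16. Psme1 was at 13.01 and 12.78, against 13.18 to 13.67, and Psme2 at 9.23 and 8.90, against 9.33 to 10.17.

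**Figure D3:**
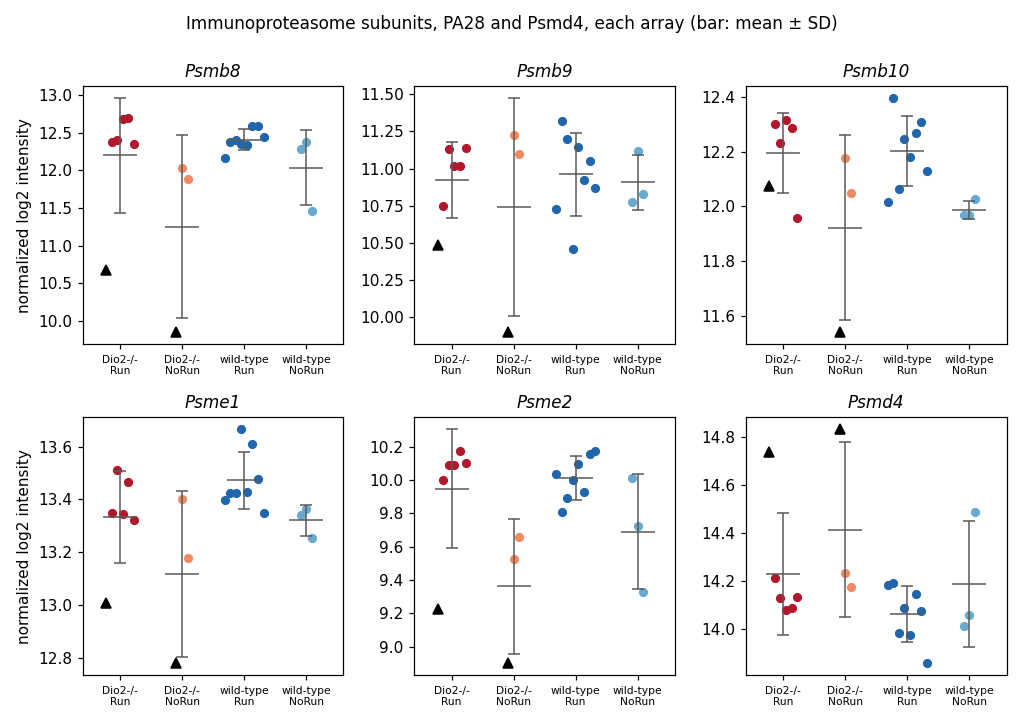
Normalized log2 intensity of Psmb8, Psmb9, Psmb10, Psme1, Psme2 and Psmd4 in each array, by group, with the mean and SD as a bar; black triangles are Dio2-/- Run pool 24 and Dio2-/- NoRun pool 16. These pools are the lowest of all for Psmb8, Psme1 and Psme2 and the highest of all for Psmd4 (14.74 and 14.83).

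Of the genotype differences of these 5 genes, 4 changed sign without these pools. Over all 20 arrays the log2 difference (Dio2-/- minus wild-type) was -0.38 ± 0.26 for Psmb8, -0.08 ± 0.15 for Psmb9, -0.02 ± 0.08 for Psmb10, -0.16 ± 0.08 for Psme1 and -0.14 ± 0.13 for Psme2, with adjusted P from 0.3819 to 0.9183. Without the 2 pools the values were 0.05 for Psmb8, 0.11 for Psmb9, 0.05 for Psmb10, 0.03 for Psme2 and -0.06 for Psme1. With the neutrophil and muscle marker means in the model they were 0.09, 0.15, 0.08, 0.01 and -0.04, in the same order. Within chip 4, the difference of Dio2-/- Run pool 35 from the wild-type NoRun pools was 0.32 for Psmb8 and 0.41 for Psme2. Within chip 6, that of the 2 Dio2-/- Run pools from wild-type Run pool 23 was -0.82 for Psmb8 and -0.39 for Psme2, with pool 24 among them. Over all 20 arrays the constitutive counterparts were at -0.04 ± 0.07 for Psmb5, -0.09 ± 0.08 for Psmb6 and -0.11 ± 0.10 for Psmb7.

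In pools 16 and 24 the proteasome genes did not all lie to one side. Of the 37 genes, 6 were lower in both than in any of the other 18 pools (Psma2, Psma7, Psmb8, Psmd10, Psme1 and Psme2; 16.2%, against 12% of all genes), and 6 were higher in both (Psmc2, Psmc5, Psmd4, Psmd8, Psmd13 and Psme4; 16.2%, against 10.2%). Psmd4 and Psme4 were singled out after their values were seen. Psmd4, a ubiquitin receptor of the cap, was at 14.74 in pool 24 and 14.83 in pool 16, against 13.86 to 14.49 in the others. Psme4, which encodes the activator PA200, was at 13.46 and 13.62, against 12.38 to 13.11. Besides the neutrophil list, the monocyte and macrophage list (9.83 in pool 24 and 9.51 in pool 16, against 10.73 to 11.21) and the T and NK cell list (8.12 and 6.95, against 8.93 to 9.81) were at their lowest there, as were the B cell list (9.78 and 8.47, against 9.82 to 10.73) and the MHC class I list (10.63 and 10.32, against 10.66 to 11.12). The cartilage marker list was at its highest there, at 10.07 and 10.11, against 9.03 to 9.99. The part of these markers in the subunit values was not tested beyond the model with marker means.

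**Figure D4:**
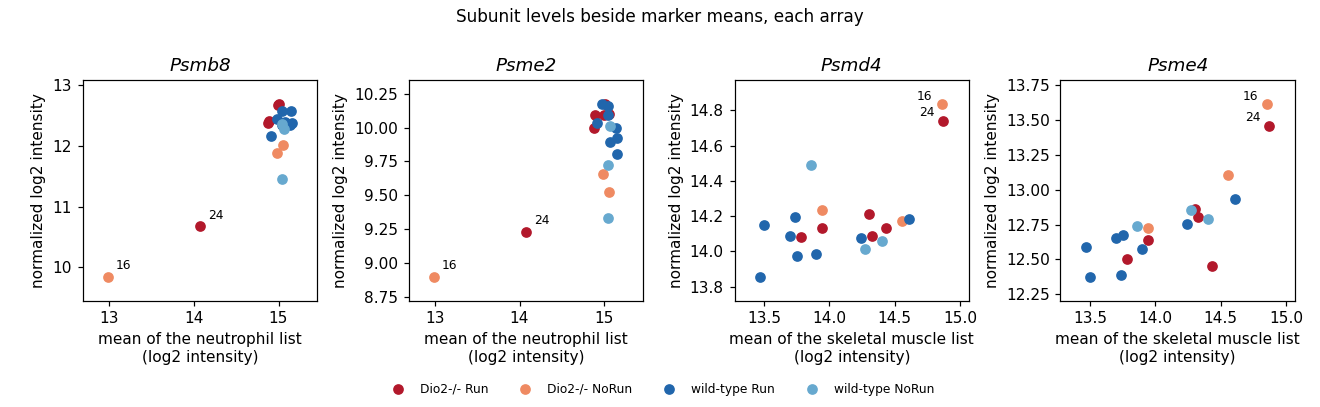
Normalized log2 intensity of Psmb8 and Psme2 against the mean of 13 neutrophil markers, and of Psmd4 and Psme4 against the mean of 13 skeletal muscle markers, 1 point per array and coloured by group. Pools 16 and 24 lie apart at low neutrophil and high muscle means, and the points share the normalization of their arrays.

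Genes that build, regulate or feed the proteasome were read from lists beside the subunits. Of 12 tested assembly factors and regulators, 7 were above 0 between the genotypes, and at the unadjusted threshold 2 were higher (16.7%, against 8.76% of all genes) and 1 lower (8.33%, against 6.95%) in Dio2-/-. Nfe2l1, the factor that induces subunit genes when the proteasome is impaired, had 0.31 ± 0.11 (adjusted P = 0.2562). Nfe2l2, a related factor of the oxidative stress response, had -0.36 ± 0.12 (adjusted P = 0.2442), the opposite direction. Nfe2l1 was highest of all arrays in Dio2-/- NoRun pool 16 (12.86) and Dio2-/- Run pool 24 (12.75). Nfe2l2 was lowest of all arrays in pool 24 (7.49) and was at 7.90 in pool 16. Psmg2, a chaperone of alpha ring assembly, had 0.18 ± 0.07 (adjusted P = 0.2933).

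Of 10 tested genes of ubiquitin activation and delivery 9 were above 0, with a median of 0.14. Sqstm1 (p62), a receptor that carries ubiquitinated cargo, had 0.36 ± 0.10 (adjusted P = 0.2101), and the chaperone Bag6 had 0.22 ± 0.08 (adjusted P = 0.2537). Both passed the unadjusted threshold (20% of the list, against 8.76% of all genes), and Nploc4, a cofactor of the segregase Vcp, with 0.145 ± 0.08 did not. The mean of this list was 10.41 in Dio2-/- Run pool 24 and 10.66 in Dio2-/- NoRun pool 16, the highest of all arrays, against 9.88 to 10.27 in the others. Of 9 tested genes of MHC class I presentation 7 were below 0, with 1 past the unadjusted threshold (11.1%, against 6.95% of all genes): Pdia3, which assists the folding of class I molecules, had -0.33 ± 0.12 (adjusted P = 0.265). The class I light chain B2m had -0.17 ± 0.09 and Tapbpl -0.18 ± 0.12. Of 13 tested interferon response genes 9 were below 0, and Gbp3 alone passed the unadjusted threshold (7.69%, against 6.95% of all genes), with -0.24 ± 0.11 (adjusted P = 0.3199). Irf9, a factor that acts with STAT proteins downstream of interferon, had -0.16 ± 0.09 and Ifi47, an interferon-induced GTPase, -0.42 ± 0.25.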

How the data were processed

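Probe intensities were deposited on a linear scale without normalization, each with its detection P-value, beside a table of log2 values normalized by the authors with a method not stated in the sources. GenomeStudio is named in the submitters' processing notes, without a version. Intensities were background-corrected with neqc (limma 3.58.1, R 4.3.3, offset 16) from the detection P-values and then brought to the same quantiles. Linear models with moderated statistics were fitted to the 23148 probes above background on 3 or more arrays, with Benjamini-Hochberg adjustment over all of them. The genotype comparison used genotype and running over 20 arrays, and the others used the 4 groups. The fit was tested on simulated data with independent noise and a genotype shift. The simulation held no chip effects and no pools that stood apart, so it does not cover these. Groups came from the labels, and P-values measure the spread between pools of 2 mice within groups. Each NoRun group lay on 1 chip, so the spread within it holds no variation between chips. Signal near background compresses differences, and the number of arrays limits the precision. Members and lists were chosen with earlier results of these data known. Named were Psmb5 to Psmb10, Psme1 and Psme2, members past the unadjusted threshold between the genotypes, the 5 members of smallest P in each other comparison, genes whose probes disagreed past that threshold, and the 3 genes of smallest genotype P in each pathway list. Alternatives were other background, normalization, detection and variance settings, the authors' log2 table, array weights, chip as a block, the mean of a gene's probes, marker covariates and leaving out pools.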

Additional observations from a re-analysis of the deposited data

Results flagged for a closer look

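Among 20 named genes in the Dio2-/- Run and wild-type Run groups, 3 of 40 sets of values held a pool far from the others, and chance alone marks about 1 in 20 sets. In each it was Dio2-/- Run pool 24, the lowest of its group. Psmb8 was at 10.68 there, against 12.35 in the nearest pool of the group. Psme2 was at 9.228, against 9.996, and Psmd5 at 7.374, against 8.226. Pool 24 also had the lowest neutrophil marker mean of its group (14.08), and its part in these values was not tested. No set of wild-type Run values was marked.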

How the results depend on the processing

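In all settings tried, no subunit passed the adjusted threshold between the genotypes over all arrays or among the Run pools. Among the NoRun pools 1 subunit passed with no background correction and 1 in the authors' table, and 6 with array weights. In the wild-type running comparison, where Psmc4 passed, the count was 2 with no background correction, 2 with marker covariates, 2 without Dio2-/- Run pool 24 and Dio2-/- NoRun pool 16, 6 with array weights, and 0 with chip as a fixed or random block. Array weights also gave 7 calls in the Dio2-/- running comparison and 1 in the interaction, and moved the medians of the 37 genes to 0.019 for wild-type running and 0.052 for the interaction. The fit of these weights stopped before it had converged. Leaving out 1 pool at a time gave 0 to 2 calls for wild-type running and 0 to 3 for Dio2-/- running, and medians of -0.032 to 0.037 between the genotypes, -0.070 to 0.021 among NoRun, -0.023 to 0.0062 among Run, 0.016 to 0.11 for wild-type running, 0.043 to 0.092 for Dio2-/- running and -0.030 to 0.040 for the interaction.

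Signs changed as follows, with the cause not tested. Between the genotypes, Psmd9 was at -0.062 with chip as a fixed block (the same among Run pools). Psmb8 was at 0.092 with marker covariates and 0.047 without both pools. Psmb9 was at 0.035 with array weights, 0.16 with chip as a fixed block, 0.15 with covariates and 0.11 without both pools. Psmb10 was at 0.040, 0.083 and 0.049 with weights, covariates and without both pools, and Psme2 at 0.011 and 0.031 with covariates and without both pools. Without 1 pool, Psmb9 ran from -0.14 to 0.036 and Psmb10 from -0.055 to 0.028. By the mean of all probes, the Run differences of Psmd7 and Psmd9 were -0.00196 and -0.036. The Dio2-/- running difference of Psmb9 was -0.10 with weights, -0.11 with covariates, -0.15 without both pools and -0.24 without Dio2-/- NoRun pool 16 (range over single pools -0.24 to 0.42), and its wild-type running difference was -0.010 without wild-type NoRun pool 12, with a range of -0.010 to 0.16. Chip as a fixed block gives no estimate for comparisons with the Dio2-/- NoRun pools. No paired analysis was possible because the groups share no replicate numbers.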

Other observations

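The assembly and delivery genes were also read with running, and those named here were chosen after their values were seen. Psmg1 and Psmg2, which form a chaperone of alpha ring assembly, had log2 differences (Run minus NoRun) of 0.51 (adjusted P = 0.07061) and 0.33 (adjusted P = 0.1438) in Dio2-/- mice. In wild-type mice Psmg2 had 0.25 (adjusted P = 0.3448). Psmg1 was higher with running there too, at 10.06 to 10.22 in the wild-type Run pools and 9.86 to 10.01 in the wild-type NoRun pools. Ecpas, a scaffold that binds the proteasome, had -1.05 (adjusted P = 0.08038) in Dio2-/- mice and -0.74 (adjusted P = 0.238) in wild-type mice. Uba6, a ubiquitin-activating enzyme, had -1.71 ± 0.36 (adjusted P = 0.05215) in Dio2-/- mice and -0.44 ± 0.35 in wild-type mice, and the difference between these was -1.27 ± 0.50 (adjusted P = 0.9292). None of these genes passed the adjusted threshold. Uba6 and Ecpas were highest, and Psmg1 lowest, of all arrays in Dio2-/- NoRun pool 16, which stood apart by its markers. Uba6 was at 10.90 there, against 9.59 and 9.72 in the other Dio2-/- NoRun pools and 7.85 to 9.57 in the Dio2-/- Run pools. Ecpas was at 9.999 there, against 9.21 and 9.17, and 7.90 to 8.98, in the same order. The Dio2-/- NoRun pools shared no chip with other groups, and the part of pool 16 or of the chip was not tested.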
